A study of Mus musculus with 6 samples.

Results

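Mucin genes were followed along the mouse epididymis, where sperm mature and are stored, in its clear cells, the proton-secreting cells of the epithelium. The 7 genes are Muc1, Muc3, Muc4, Muc13, Muc15, Muc16 and Muc20, chosen by name among the 37578 rows of the deposited expression table. All 7 encode membrane-associated mucins. Reads were found for 6 of them, and 5 (all but Muc13 and Muc16) had enough reads to enter the test over 15816 genes. There were 2 libraries each for the caput (nearest the testis), the corpus (the middle) and the cauda (the storage end). Every library was made from EGFP-positive cells sorted in 2 rounds out of 12 pooled epididymides of untreated mice aged 12 weeks. All mice carried the same transgene, EGFP under the promoter of ATP6V1B1, a subunit gene of the proton pump that clear cells carry. Sorting therefore selected for activity of that promoter, and there was no group without the transgene. Whether both pools of a region came from different mice is not stated, so the p-values describe the spread between these libraries, which may be technical. By GENCODE M21 (GRCm38), Muc4, Muc13 and Muc20 lie on chromosome 16, Muc1 on 3, Muc3 on 5, Muc15 on 2 and Muc16 on 9.

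Mucins are large glycoproteins whose extracellular part is rich in serine and threonine and densely coated with O-linked sugars. Gel-forming mucins are secreted and make mucus. Membrane mucins stay anchored in the apical membrane, where they form the glycocalyx, a lubricating and protective coat that also limits the access of microbes to the cell. Several of them, Muc1 among them, have a cytoplasmic tail that can take part in signalling. In the epididymis this surface faces stored sperm and the luminal fluid.

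The sorted cells carried clear cell transcripts in every library, and their level differed by region. The 10 clear cell markers summed to 7709 and 7436 CPM (counts scaled to the TMM-adjusted library size) in caput, 2282 and 2676 in corpus, then 839 and 1058 in cauda, with no marker at 0. Principal cell markers, which include secreted products of the neighbouring cell type, ran from 7675 and 7526 CPM in caput over 73856 and 85180 in corpus to 142989 and 132101 in cauda, at most 1 of the 10 genes being at 0 in a library. Most of each sum was Crisp1 and Cd52, at 76109 and 60989 CPM in cauda library 1. By gene the principal cell markers were mixed, with 5 higher and 5 lower in caput than in cauda. Over all genes tested, 33.9% were higher and 33% lower in caput against cauda. Those shares were 33.2% and 31.8% against corpus, and 17.3% and 18% for corpus against cauda. No marker count was tested against them. In these bulk samples, fewer cells of a type and less RNA per cell cannot be told apart. Caput library 2 held more sperm transcripts than library 1, at 158 against 20.3 CPM over 6 genes. Stromal and muscle markers summed to 586 and 639 CPM in caput, 164 and 154 in corpus, then 437 and 516 in cauda. Most of each sum was 1 gene, Dcn, and by gene 1 of the 9 was higher and 4 were lower in caput than in cauda (median -1.62), with 1 higher and 1 lower against corpus (median -0.93). Basal cell markers summed to 242 and 349 CPM in caput, 160 and 135 in corpus, then 142 and 98.8 in cauda, none at 0. Of these 7 genes 6 were higher in caput than in cauda and 0 lower (median 2.12), 4 were higher and 1 lower against corpus, and 3 were higher and 0 lower in corpus than in cauda. Between caput and cauda most basal markers thus moved in the same direction as Muc20, Muc4 and Muc15. Against corpus Itga6 was lower in caput (-1.47 on the log2 scale), and Krt15 and Cldn1 were not called. The part of basal cells in the mucin results was not tested. Phagocyte, lymphocyte, endothelial and ciliated cell markers each summed to at most 46.1 CPM. Reads assigned to genes ranged from 18887128 to 24700717 per library.

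Muc20 was by far the most abundant member per gene length in every library, and its level fell along the duct. Muc20, a mucin known from kidney and placenta and reported to bind the receptor Met, measured 210 and 184 RPKM (reads scaled to gene length and library size) in the caput libraries. It measured 29.9 and 28.3 RPKM in corpus and 14.3 and 17 in cauda. The means were 197 ± 18.7, 29.1 ± 1.08 and 15.6 ± 1.96 RPKM (SD, n = 2). No library of one region overlapped with those of another, and caput stood apart from both others by the widest margin. In caput, Muc20 exceeded 99% and 98.9% of the genes with a read, in corpus 89.4% and 88.9%, and in cauda 82% and 83.8%. Of the RPKM summed over the 7 members, Muc20 made up 94.6% and 93% in caput, 90.7% and 87.7% in corpus, then 82.9% and 74.7% in cauda. The remainder was mostly Muc4, Muc15 and Muc1 in caput and Muc1 in corpus. In cauda it was mostly Muc3, with 15.2% and 24.1% of the sum.

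**Figure D1:**
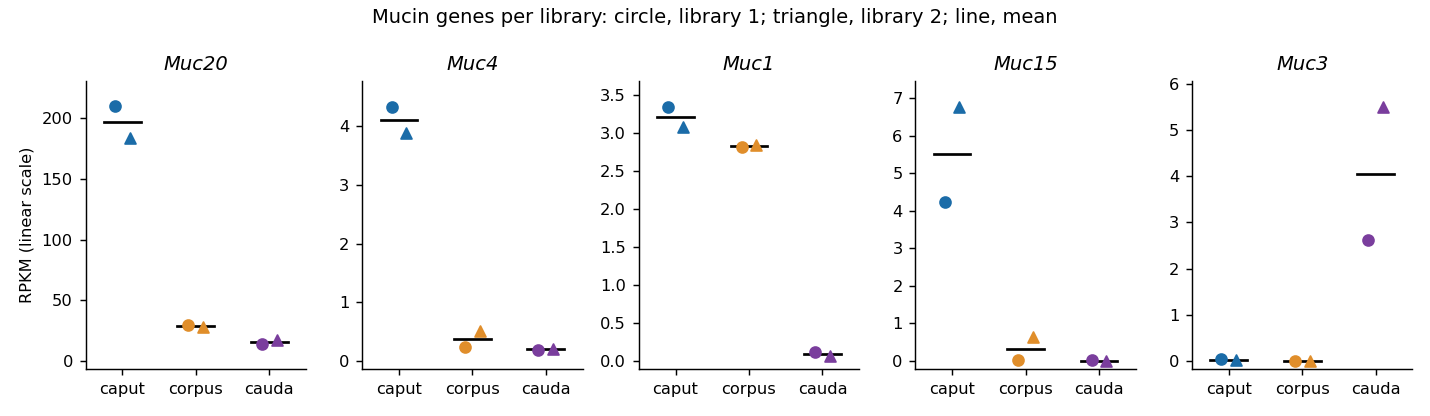
RPKM (linear vertical axis, a separate scale for each gene) of Muc20, Muc4, Muc1, Muc15 and Muc3 in caput, corpus and cauda, with a circle for library 1, a triangle for library 2 and a line for the mean. Muc20, Muc4 and Muc15 were highest in caput, Muc1 was high in caput and corpus (3.35 and 3.08, 2.82 and 2.84 RPKM), and Muc3 was high in cauda alone among these libraries (2.62 and 5.5 RPKM).

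The test of all regions together called each of the 5 tested members (edgeR's quasi-likelihood test, Benjamini-Hochberg adjusted p from 1.38e-08 for Muc20 to 0.0138 for Muc15). Among all genes tested 75.1% were called, so a call is what most genes in these libraries gave. A member that is near 0 in 2 regions passed the filter on low counts only through the region where it is high, and the count is given as a description.

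Comparing the 2 ends, 4 members were higher in caput and 1 was lower than in cauda. The background was 66.9% of genes called in either direction, 33.9% higher in caput and 33% lower. Their median log2 fold change was 4.30, against 0.04 over all genes tested. Muc20 was higher in caput by 3.59 ± 0.11 on the log2 scale (approximate SE, edgeR adjusted p = 1.08e-08). Muc4, also called the sialomucin complex and known to bind the receptor Erbb2, had 1705 and 1341 reads in caput, 53 and 124 in corpus, then 39 and 47 in cauda. Its caput libraries lay far above all others, and it was higher in caput than in cauda by 4.30 ± 0.31 (adjusted p = 9.51e-06). Muc1, a mucin whose tail can bind beta-catenin, had 257 and 207 reads in caput and 5 and 3 in cauda, and was higher in caput by 4.98 ± 0.34 (adjusted p = 1.08e-06).

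Muc3, a membrane mucin of the intestine with EGF-like domains, went the other way. It had 3 and 1 reads in the caput libraries, none in corpus, and 114 and 255 reads in cauda, where it measured 2.62 and 5.5 RPKM. The cauda libraries differed from each other but both lay far above the other 4. The log2 difference, caput minus cauda, was -7.23 ± 0.62 (adjusted p = 1.76e-05), and the reads alone gave a 165-fold higher level in cauda (95% exact counting interval 63.7 to 607). Corpus had 0 reads, so cauda was at least 130-fold higher than corpus, taking a floor of 3 counts over the group. Caput and corpus, with 4 and 0 reads, showed no difference that this depth could detect (adjusted p = 0.141). The deposited length of Muc3, 2487 bases, is 128% of its exonic bases in M21. The summed level of principal cell markers, mostly Crisp1 and Cd52, was also highest in cauda. The part of principal cells in the Muc3 signal was not tested.

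Muc15, a smaller membrane mucin without EGF-like domains, was a caput transcript in these libraries. It measured 4.25 and 6.77 RPKM in caput (511 and 712 reads) and had 1 and 0 reads in cauda. That gave a 686-fold higher level in caput (95% exact counting interval 123 to 27102, edgeR adjusted p = 0.0111). The fold rests on that 1 cauda read. The call was lost without cauda library 1 (fitted log2 change 11.87 against 9.19 with all libraries, adjusted p = 0.0606) or 2 (8.27, adjusted p = 0.0644). Corpus was split, with 1 read in library 1 (0.0151 RPKM) and 46 in library 2 (0.627 RPKM). Against corpus, Muc15 was higher in caput by 3.99 ± 1.03 (adjusted p = 0.0285), but by 3.06 without corpus library 1 and by 8.32 without corpus library 2. The call was lost with DESeq2 (adjusted p = 0.052), when low-count genes were kept (adjusted p = 0.0773) and when cauda was left out of the fit (adjusted p = 0.0562). Leaving out a caput or a cauda library ended it as well, with adjusted p from 0.0542 to 0.107. Corpus and cauda did not differ past the threshold (adjusted p = 0.202), but did without corpus library 1 (adjusted p = 0.0029). The 95% interval of the difference between corpus and cauda was wide on the log2 scale, from -1.74 to 12.13.

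A gap of that size between the corpus libraries was rare. Of 13300 genes with at least 20 reads in either corpus library, 19 were over 10-fold higher in library 2 and 8 in library 1. The 19 included Muc15, the secreted mucin gene Muc5b (0 and 28 reads) and the sperm genes Crisp2, Odf1, Oaz3, Pgk2 and Smcp. Among them were also the immune genes Fcer2a, Il9r, Cd163l1, Igkv16-104 and Igkv4-72. The 8 genes higher in library 1 held immune genes too, among them Igkv14-126, Igkv4-91 and Il1b. The share of sperm or immune genes over all genes was not counted. These names were chosen after their values were seen. The 6 listed sperm transcripts summed to 0.168 CPM in corpus library 1 (4 at 0) and 1.47 in library 2 (2 at 0), and 1.22 of the latter was Odf1. Lymphocyte markers summed to 21.7 and 32.4 CPM in corpus library 1 and 2. In caput library 2, where Muc15 was higher than in library 1, sperm transcripts (158 against 20.3 CPM) and lymphocyte markers (23.2 against 2.52) were both higher. In cauda library 2 both were also higher (4.09 against 2.91 and 17.8 against 3.9 CPM), while Muc15 had 0 reads there and 1 in library 1. In caput the principal cell markers Lcn8, Lcn9, Rnase10 and Cst8 were also higher in library 2, Lcn8 at 926 against 277 CPM. Aqp9, Adam7, Crisp1, Lcn5 and Cd52 were lower there, and Slc9a3 was near 0. Of 14449 genes with at least 20 reads in either caput library, 223 were over 10-fold higher in library 2 and 11 in library 1. The part of sperm, immune or principal cells in the Muc15 reads was not tested.

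Between caput and corpus, 3 members were higher in caput, against 33.2% of all genes higher there, 31.8% lower and 65% called in either direction. The median of the 5 tested was 2.70 with Muc3 set at its bound (3.36 as fitted), against 0.04 over all genes. Muc20 was higher by 2.70 ± 0.10 (adjusted p = 6.75e-08) and Muc4 by 3.36 ± 0.28 (adjusted p = 2.71e-05), with Muc15 as given above. Unlike these 3 members, Muc1 was not called. It measured 3.35 and 3.08 RPKM in caput and 2.82 and 2.84 in corpus, a difference of 0.12 ± 0.22 on the log2 scale (adjusted p = 0.646). The 95% interval ran from -0.38 to 0.63, so a difference within that range remains possible. Scaling by library totals moved the median of all genes from 0.04 to 0.63, and Muc1 to 0.71 with a call (adjusted p = 0.0144).

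Between corpus and cauda, 2 members were higher in corpus and Muc3 was lower there, against 35.4% of genes called in either direction, 17.3% higher in corpus and 18% lower. The median of the 5 was 0.95, against 0.00 over all genes. Muc1 was higher in corpus by 4.86 ± 0.34 (adjusted p = 7.03e-06), with 119 and 133 reads in corpus and 5 and 3 in cauda. That is the interval in which Muc1 stepped down, whereas Muc20 was higher in corpus than in cauda by 0.89 ± 0.10 (adjusted p = 0.00015). Muc4 measured 0.245 and 0.516 RPKM in corpus and 0.186 and 0.21 in cauda. That difference of 0.95 ± 0.34 missed the threshold (adjusted p = 0.07). It passed with DESeq2 (adjusted p = 0.0235) and under library totals (1.21, adjusted p = 0.0194). It rose to 1.39 without corpus library 1 and fell to 0.30 without corpus library 2.

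**Figure D2:**
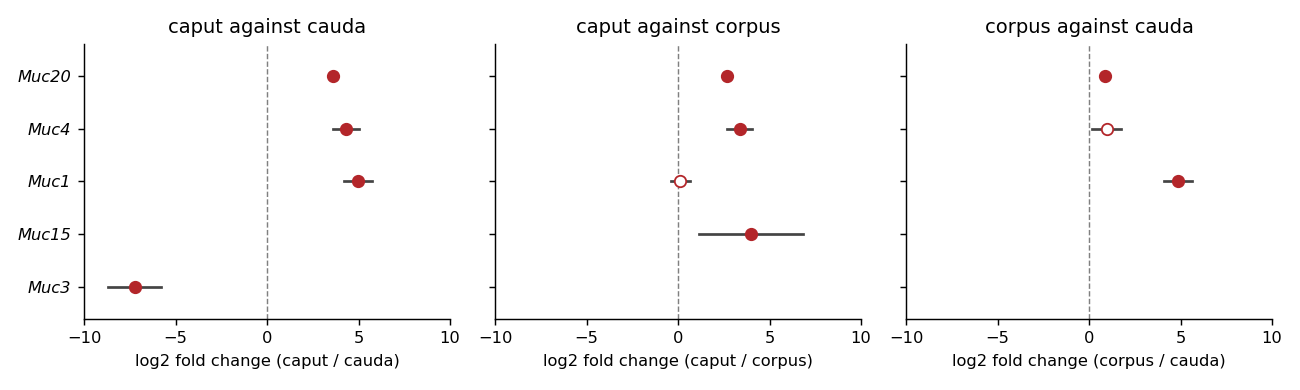
Log2 fold changes (horizontal axis, positive where the first region is higher) of 5 mucin genes in the 3 comparisons, with 95% intervals from the approximate SE, filled where the adjusted p was under 0.05. Pairs with 3 or fewer reads in the lower region have no point. Muc1 sits at 0.12 between caput and corpus and at 4.86 between corpus and cauda, whereas Muc20 sits at 2.70 and 0.89.

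By region, the order of the levels per length differed. In caput, Muc20 was followed by Muc15 (4.25 and 6.77 RPKM), Muc4 (4.34 and 3.89) and Muc1 (3.35 and 3.08), and the values of Muc15 and Muc4 overlapped. Next came Muc3 and Muc13 near 0. In corpus, Muc1 (2.82 and 2.84) came next after Muc20, then Muc4 (0.245 and 0.516) and Muc15 (0.0151 and 0.627), whose values overlapped. In cauda, Muc3 (2.62 and 5.5) came after Muc20, then Muc4 (0.186 and 0.21) and Muc1 (0.122 and 0.0688), with Muc15 at or near 0.

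Muc13 and Muc16 gave next to nothing. Muc13, a mucin of gut and blood-forming cells, had 5 reads in caput library 2 and none elsewhere, where a count of 0 allows up to 0.0291 RPKM in caput library 1 and up to 0.0577 in the others. Muc16, the very large mucin of the ocular surface and of mesothelium known as CA125, had 0 reads in every library. Its row in the deposited table spans only 1026 bases. The Muc16 gene of the GENCODE M21 annotation has 26350 exonic bases, so the row covers 3.89% of that length, and its identifier is absent from M21. The value at 0 (at most 0.0857 to 0.17 RPKM by library) therefore speaks for a small piece of the gene. Mesothelial markers (Msln, Upk3b, Wt1, Lrrn4) summed to at most 0.171 CPM in 5 libraries and to 1.63 in cauda library 2.

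Muc4 and Muc20 are neighbours on chromosome 16 and lie on opposite strands with their 3′ ends overlapping. In GENCODE M21 the genes share a span of 4973 bases, and 627 bases are exonic in both, 5.33% of the exonic bases of Muc4 and 15.6% of those of Muc20. The authors' counting ignored strand, so reads of the 2 genes cannot be told apart there. How the counting treated such reads is not given in the sources used here: they may stand under a gene or among the ambiguous reads left out. The overlap is that of M21, not of the annotation used for the counts. Muc4 reads amounted to 6.14% and 6.3% of Muc20 reads in caput, 2.44% and 5.42% in corpus, then 3.89% and 3.68% in cauda. The share of Muc4 reads that came from Muc20 transcripts was not tested.

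The sequences just before the starts of Muc20, Muc4 and Muc1 are shown because these 3 members were called higher in caput than in cauda and their start sites agree between RefSeq and GENCODE. Each is the 250 bases before the start, 5′ to 3′ on the gene's strand, from RefSeq on GRCm38.p6, a later build than the mm9 of the counts. Capitals mark matches to the motifs searched on both strands: the forkhead core TGTTTAC, the TATA element TATAAA, the E-box word CACGTG and the GC box GGGCGG. The Muc20 window is chr16:32797436-32797685 (minus strand), that of Muc4 chr16:32735636-32735885 (plus strand) and that of Muc1 chr3:89228806-89229055 (plus strand).
Muc20: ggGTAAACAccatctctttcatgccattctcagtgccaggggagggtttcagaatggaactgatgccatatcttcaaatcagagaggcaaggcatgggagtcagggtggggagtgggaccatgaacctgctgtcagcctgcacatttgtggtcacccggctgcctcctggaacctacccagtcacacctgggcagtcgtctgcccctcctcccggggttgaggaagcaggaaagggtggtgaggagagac
Muc4: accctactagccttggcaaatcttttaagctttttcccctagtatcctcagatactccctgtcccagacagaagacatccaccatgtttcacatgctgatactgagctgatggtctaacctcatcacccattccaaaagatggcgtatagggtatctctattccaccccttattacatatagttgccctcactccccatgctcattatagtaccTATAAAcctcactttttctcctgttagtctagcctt
Muc1: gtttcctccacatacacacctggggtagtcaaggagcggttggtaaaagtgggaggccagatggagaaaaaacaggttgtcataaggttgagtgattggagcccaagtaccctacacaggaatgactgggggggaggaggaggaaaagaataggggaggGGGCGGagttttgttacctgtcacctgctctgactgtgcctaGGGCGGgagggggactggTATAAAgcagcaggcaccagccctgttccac

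The windows differed in what they held. Muc20 had a forkhead core on the opposite strand, beginning 248 bases before the start. Such a match stood in 3.17% of 32851 promoter windows of this length. Muc4 and Muc1 each had TATAAA, 36 and 31 bases before the start (12.4% of windows), and Muc1 had GC boxes at 91 and 49 (32.7% of windows). No window held CACGTG (6.02% of windows), and no match overlapped another. A match is a description of letters and shows no binding. G and C made up 57.2% of the Muc20 window, 43.6% of the Muc4 window and 54.8% of the Muc1 window.

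Muc20 was set beside Foxi1, a clear cell marker and the transcription factor that specifies proton-secreting cells. Its proportion to Foxi1 stayed between 29.9% and 38.7%. Muc20 CPM was 34.1% and 33.2% of Foxi1 CPM in caput, 31.7% and 29.9% in corpus, then 38.7% and 34.2% in cauda, while both genes fell more than 10-fold. From caput to cauda the log2 differences were 3.59 ± 0.11 for Muc20 and 3.69 ± 0.14 for Foxi1, and the median of the 10 clear cell markers was 3.52, with 10 of 10 called higher in caput. Against corpus 9 were higher in caput and 1, Car2, was lower. Over all genes, 33.9% were higher in caput than in cauda and 33.2% higher in caput than in corpus. The markers fell unevenly from caput to cauda, from 0.78 ± 0.09 for Atp6v1c2 to 4.39 ± 0.14 for Hepacam2. Muc20 therefore did not keep the same proportion to each marker. Muc1 had no steady proportion to Foxi1, at 0.316% and 0.323% of it in caput, 1.74% in both corpus libraries, and 0.193% and 0.0805% in cauda. Muc4 ranged from 0.773% to 2.09%. These are ratios of values from the same libraries and carry no test. Whether the share of clear cells in the sorted pools set the Muc20 level was not tested.

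**Figure D3:**
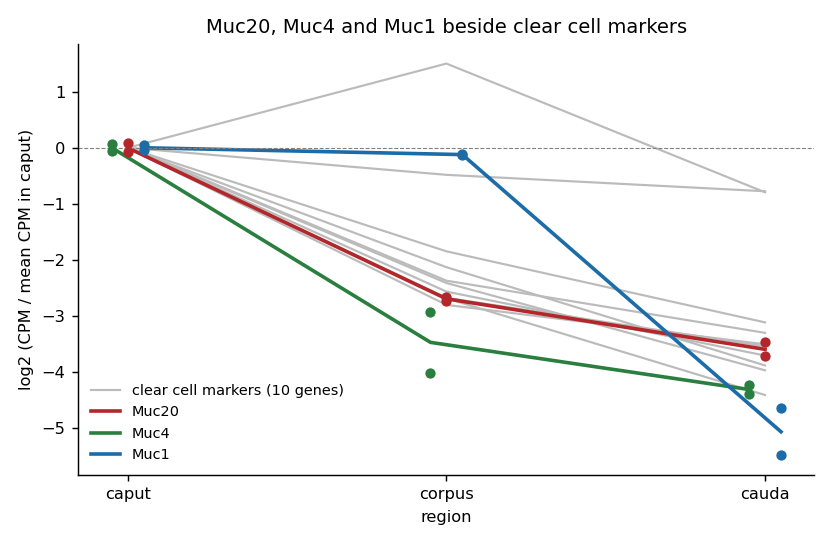
Log2 of CPM relative to the caput mean (vertical axis) in caput, corpus and cauda for Muc20, Muc4 and Muc1 (coloured lines through the mean, a point per library) and 10 clear cell markers (grey lines, means). Muc20 falls within the range of most markers, of which 1, Car2, is higher in corpus than in caput (fitted differences of Muc20: 2.70 between caput and corpus, 3.59 between caput and cauda), whereas Muc1 stays level to corpus and then drops.

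Genes with the profile most like each member were taken by Pearson correlation of log2 CPM over the 6 libraries, among 8312 named genes with a mean of at least 10 CPM. With 3 regions many genes correlate closely, and the values are a description. Muc20 was closest to Itfg3 and Bcl2, the apoptosis inhibitor (r = 0.9998 for both), among 344 genes above 0.99, and its r with Foxi1 was 0.9974. Muc4 was closest to Nr3c2, the mineralocorticoid receptor (r = 0.9995), and Zcchc18 (0.9991). Muc1 was closest to Cyb5r1 (0.9991) and Tbc1d4, a regulator of glucose transporter traffic (0.9978). Cyb5r1 measured 22.9 and 21.6 CPM in caput, 23.2 and 22.5 in corpus, then 4.3 and 3.54 in cauda. Muc1 was also level and then dropped, but further, from 6.66 and 6.74 CPM in corpus to 0.291 and 0.163 in cauda. Muc3 was closest to Tmem106b (0.9986) and Wwox (0.9971), and Muc15 to Xpo4 (0.9947) and Lin37 (0.9912). Correlation compares the shape of a profile and not its size. Cyb5r1 and Tbc1d4 changed less than Muc1, and Tmem106b, Wwox, Xpo4 and Lin37 changed far less than Muc3 and Muc15. Tmem106b measured 38 and 36.9 CPM in caput, 34.2 and 34.5 in corpus, then 57.4 and 61.4 in cauda. Xpo4 measured 12.9 and 14 CPM in caput, 9.01 and 11.6 in corpus, then 9.36 and 8.94 in cauda.

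Secreted mucins were sparse in these libraries. Of 7 listed genes 6 were in the table, 3 of them were tested, and together they made up 2.46 and 2.35 CPM in caput, 5.54 and 6.58 in corpus, then 6.51 and 7.19 in cauda. In corpus and cauda most of that was Ovgp1, oviductin (3.47 and 3.7, 5.7 and 6.43 CPM). In caput Ovgp1 gave 0.703 and 1.37 CPM and Muc5b 1.55 and 0.648. Ovgp1 was lower in caput than in cauda at -2.56 ± 0.35 (adjusted p = 0.00014). Muc5ac, a gel-forming mucin of airway and stomach, had 0 reads in caput, so corpus (45 reads) was at least 25.3-fold and cauda (21 reads) at least 12.5-fold higher. Muc5ac was called lower in caput in both comparisons (adjusted p = 0.000904 against cauda and 0.000266 against corpus). Muc5b, named after its values were seen, had 72 reads in caput, 28 in corpus and 2 in cauda, a 20.2-fold difference between the ends (95% exact counting interval 5.39 to 170) that missed the threshold (adjusted p = 0.0637) but was called with DESeq2 and under library totals. Counts for the list were thus 0 higher and 2 lower in caput than in cauda (1 and 2 with DESeq2 or library totals). They were 0 and 2 against corpus, and 0 were called between corpus and cauda. For this list and the next, the shares over all genes were 33.9% higher and 33% lower in caput against cauda. Those shares were 33.2% and 31.8% against corpus, and 17.3% and 18% for corpus against cauda. Genes of the goblet cell programme, which accompany mucus secretion elsewhere, were also scarce, at 9.38 CPM or less per library over 10 genes, with Tff1 and Zg16 at 0 in every library. Of these, 3 were tested; 1 was higher and 0 lower in caput than in cauda (2 and 0 under library totals), 1 and 0 against corpus (3 and 0), and 1 and 1 in corpus against cauda. Creb3l1, a secretory pathway transcription factor, was higher in caput than in cauda by 1.79 ± 0.43 (adjusted p = 0.00446), and Agr2, a disulfide isomerase, measured 2.41 ± 0.41 CPM (SD, n = 2) in caput and 0.947 ± 0.799 in cauda (adjusted p = 0.0526). Fcgbp, which binds gel-forming mucins, was lower in corpus than in cauda at -2.79 ± 0.58 (adjusted p = 0.00464).

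Other heavily O-glycosylated membrane proteins were measured beside the mucins. For these and the following lists, the shares over all genes were 33.9% higher and 33% lower in caput against cauda, 33.2% and 31.8% against corpus, and 17.3% and 18% for corpus against cauda. No count below was tested against them. Of 8 tested, 5 were higher in caput than in cauda and 1 lower, with a median of 1.41. Cd164, endolyn, a sialomucin of endosomes and lysosomes, was the most abundant at 149, 125 and 75.5 RPKM on average in caput, corpus and cauda. It was higher in caput than in cauda by 0.92 ± 0.08 (adjusted p = 7.61e-06). Podxl2 was higher by 3.61 ± 0.11 (adjusted p = 1.19e-08) and Parm1 by 1.90 ± 0.09 (adjusted p = 1.39e-07). Podxl, podocalyxin, ran the other way at -3.41 ± 0.23 (adjusted p = 1.09e-06). Against corpus, 4 of the 8 were higher in caput and 0 lower (7 and 0 under library totals), and 3 were higher and 1 lower in corpus than in cauda.

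Enzymes that start O-glycans, the GalNAc transferases, moved in both directions. Of 15 tested, 4 were higher and 7 lower in caput than in cauda, a total near the 66.9% of all genes called, with a median of -0.27, which became 0.58 with 6 higher and 4 lower under library totals. Galnt1 and Galnt3 were lower in caput at -1.80 ± 0.10 (adjusted p = 3.09e-07) and -1.36 ± 0.08 (adjusted p = 3.88e-07). Galnt13 was higher by 2.80 ± 0.16 (adjusted p = 3.37e-07). Galnt18, listed under an older symbol, had the highest average at 82.4, 83.3 and 39.2 RPKM along the duct and was higher in caput than in cauda by 1.01 ± 0.09 (adjusted p = 6.27e-06). Between caput and corpus 3 were higher and 6 lower in caput, a split that became 5 and 4 under library totals. Between corpus and cauda 5 were higher and 6 lower in corpus, or 7 and 5 under library totals.

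Enzymes that extend and cap O-glycans included large differences. Of 13 tested, 7 were higher and 5 lower in caput than in cauda (median 2.62). Gcnt1, which makes the core branch, was higher in caput by 4.04 ± 0.21 (adjusted p = 1.94e-07). The sialyltransferases St3gal1 and St3gal2 were higher by 3.00 ± 0.17 (adjusted p = 3.56e-07) and 3.98 ± 0.29 (adjusted p = 1.62e-06). St6galnac2, a sialyltransferase acting on the first GalNAc, was lower at -1.61 ± 0.10 (adjusted p = 8.68e-07). C1galt1c1, the chaperone of core synthesis, was lower at -0.56 ± 0.10 (adjusted p = 0.000809), a smaller size than the move of the all-gene median from 0.04 to 0.89 under library totals. Library totals gave 8 higher and 3 lower. Between caput and corpus 7 were higher and 4 lower in caput, and between corpus and cauda 3 were higher and 5 lower in corpus, or 4 and 4 under library totals.

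Proteins that bind or shed membrane mucins were the last list. Of 11 tested, 6 were higher and 2 lower in caput than in cauda (median 1.35), or 9 and 1 under library totals. Mmp14, a membrane protease that can shed Muc1, was higher by 3.13 ± 0.12 (adjusted p = 3.20e-08) and Adam10, another sheddase, by 2.14 ± 0.09 (adjusted p = 6.45e-08). Met, the receptor that Muc20 is reported to bind, was higher by 2.36 ± 0.13 (adjusted p = 2.57e-07), and Ctnnb1, beta-catenin, by 1.69 ± 0.09 (adjusted p = 2.23e-07). Lgals3, galectin-3, which binds mucin glycans, was lower at -1.71 ± 0.11 (adjusted p = 9.23e-07). Erbb2, which Muc4 is known to bind, was also lower, at -0.88 ± 0.15 (adjusted p = 0.00114). It is named outside the rule. Its difference was close in size to the move of the all-gene median from 0.04 to 0.89 under library totals. Between caput and corpus 7 were higher and 2 lower in caput (9 and 0 under library totals), and between corpus and cauda 2 were higher and 4 lower in corpus, or 3 and 3 under library totals. Basal cell markers, with 6 of 7 higher in caput than in cauda, moved in the same direction as Mmp14, Adam10, Met and Ctnnb1, and their part in these values was not tested.

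**Figure D4:**
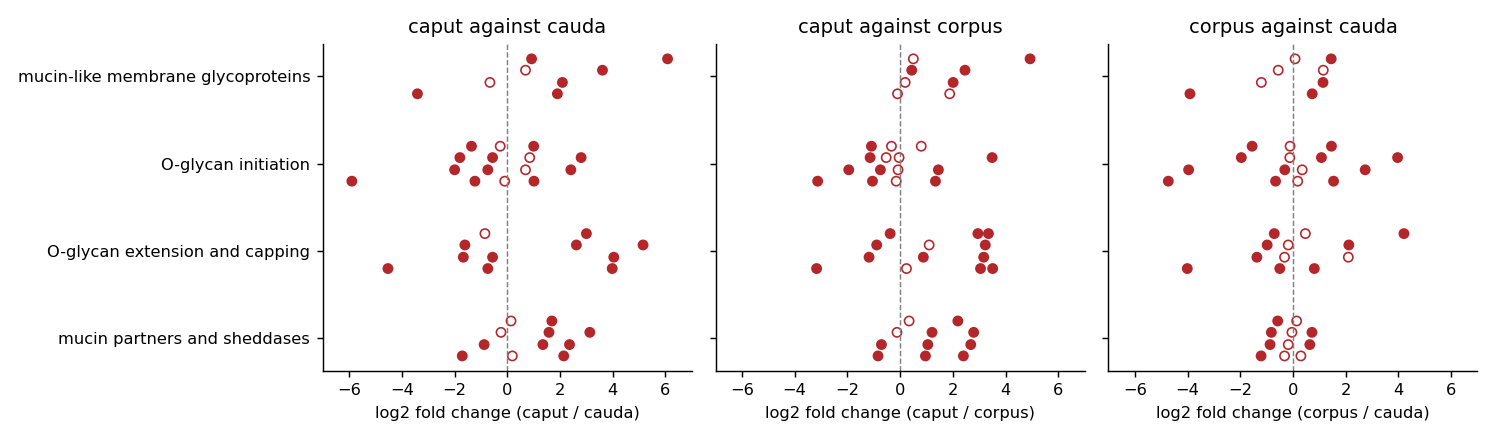
Log2 fold changes (horizontal axis, positive where the first region is higher) of genes related to mucins in the 3 comparisons, a point per gene with more than 3 reads in both regions, filled where the adjusted p was under 0.05. Glycan-starting enzymes spread to both sides (4 higher and 7 lower in caput than in cauda), whereas 6 of 11 partners and sheddases were called higher in caput and 2 lower.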

How the data were processed

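RNA of sorted clear cells was read on a HiSeq2500 from Clontech SMARTer v4 libraries, per the labels' protocols. The authors deposited gene-level read counts, a file per library named as not stranded, and 1 table of RPKM covering 6 libraries. STAR, HTSeq, edgeR and mm9 appear in the submitters' processing notes. For versions and gene annotation, nothing is given in the sources used here. Each deposited RPKM equals the library's count over the listed gene length and over a library size scaled by a factor of 0.774 to 1.387. Rows naming no gene were left out (no feature 6.67% to 9.48%, ambiguous 1.39% to 1.83%, not unique 33.11% to 38.59% of records).

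Counts were fitted with edgeR 4.0.16 (R 4.3.3): filterByExpr, TMM, robust quasi-likelihood F tests on 6 libraries with region as the only factor (3 residual degrees of freedom), two-sided, with calls at adjusted p (Benjamini-Hochberg, over all genes) under 0.05. The SE is the log2 change over the root of F, and is approximate. The steps were also run on counts simulated from the fitted dispersions with few genes changed. That setting differs from these data, where most genes were called between caput and cauda, and does not check the scaling. Alternatives were DESeq2 1.42.0, library totals, no filter, 4 libraries, the replicate block, limma 3.58.1 on log2 of the deposited RPKM plus 0.1 or 1, and leaving out each library. Floors are 3 counts over the group for folds and per library for levels, and intervals are 95% exact; both cover counting error only.

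All 7 mucins are named. For related genes the rule named up to 3 called with the smallest adjusted p and the 2 with the highest mean RPKM, and for each tested mucin the 2 genes most correlated with it. The members and lists were chosen with earlier results of these data known. Related genes were matched by identifier or symbol.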

Additional observations from a re-analysis of the deposited data

How the results depend on the processing

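Across the alternatives run, no mucin changed direction. The count called between caput and cauda was 5 with all libraries and 4 to 5 when each library was left out in turn. Between caput and corpus it was 3, and 2 to 3 on leaving out a library; it was 2 with DESeq2, with no filter and with 4 libraries, each without Muc15, and 4 under library totals. Between corpus and cauda it was 3, and 3 to 5 on leaving out a library: without corpus library 1 it was 5, since Muc15 and Muc4 then passed. Over all regions it was 5, and 4 to 5. DESeq2 and library totals each gave 4 between corpus and cauda, with Muc4 added. Replicate numbers are shared between regions, but nothing says that they pair libraries. Deviations of same-numbered libraries correlated at 0.134 to 0.187 over 15816 genes. The replicate block left the counts of mucins at 5, 3, 3 and 5 and moved the genes called between corpus and cauda from 5592 to 6090. Library totals raised the median of all genes between caput and cauda from 0.04 to 0.89 and turned the split of calls from 5363 higher and 5218 lower into 9498 and 2566. Leaving out a corpus or cauda library lowered the genes called between corpus and cauda to between 3766 and 3900; these fits assume that the lone library varies like the others. Depth limits Muc13, Muc16, Muc3 in caput and corpus, and Muc1 and Muc15 in cauda, where 0 to 5 reads were found per library.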
